A study of Arabidopsis thaliana with 16 samples.

Results

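The comparison described here is that of vtc2 with wild-type (WT) explants after 7 d of somatic embryo induction (D7I), and it rests on 4 of the 16 arrays of the series. Its members were chosen by stage and genotype alone, 2 WT and 2 vtc2 arrays. All 16 were ATH1 GeneChips, each labelled from 3 μg of total RNA of *Arabidopsis thaliana*, with 2 arrays for each of 8 groups. The explants of both genotypes were bent-cotyledon zygotic embryos (ZE) placed on induction medium with the synthetic auxin 2,4-D. Arrays of zygotic embryos, of explants after 14 d of induction (D14I) and of mature somatic embryos are used only to place the D7I values and to estimate the error of the fit. The mature somatic embryos had spent 14 d on maturation medium without 2,4-D. WT was Columbia-0 and vtc2 carried the vtc2-5 allele, a T-DNA insertion in *VTC2*, so that a single mutant line stands for low ascorbate. *VTC2* was not analysed here, and the labels were therefore not checked through the targeted gene.

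Ascorbate, or vitamin C, is made in plants mainly from GDP-mannose through L-galactose, and *VTC2* encodes the GDP-L-galactose phosphorylase, the main point of control of that route. Ascorbate removes peroxides with ascorbate peroxidase and is a cofactor of dioxygenases that act on proteins, hormones and cell walls. During induction, 2,4-D drives cells of the embryo to divide and form a callus from which somatic embryos arise.

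The values are signals, that is, intensities on a linear scale that the authors had scaled to the same trimmed mean on each array. At D7I the 2 WT arrays correlated with r = 0.952 over log2 signals of all probe sets and the 2 vtc2 arrays with r = 0.962. Arrays of different genotype reached r = 0.933 to 0.948. Differences below are log2 of vtc2 over WT with the standard error of the fit, and a call needed both an adjusted p under 0.05 (limma, Benjamini-Hochberg over 22746 probe sets) and a 2-fold difference. Signals under 30 are called weak, and log2 differences computed from them are uncertain in size. The annotation used pairs 13513 probe sets (59.4%) with 1 gene, and only those are named.

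At day 7, vtc2 explants had more transcripts called higher than lower. Of 22 measured genes known for induction by low oxygen 6 were called higher in vtc2, beside 1.98% of all probe sets. Of 47 UDP-glycosyltransferase probe sets 4 were called higher and 1 lower. Genes picked after their values were seen, 3 for NET1 actin-binding proteins and 2 for the splicing factor U2AF, were also higher, while *NET1C* did not pass. The sugar transporter genes *SWEET6* and *SAG29*, the light-harvesting gene *LHCB4.3* and a chitinase gene were lower. In all, 451 probe sets (1.98%) were called higher in vtc2 and 163 (0.717%) lower. Of these, 256 and 90 pair with 1 gene. The median log2 difference was 1.45 among those higher, with the largest at 5.13, and -1.60 among those lower, with the lowest at -5.56, while the median over all probe sets was 0.00. A difference of 4-fold or more was reached by 77 and 50 of them, and 46 and 50 had a weak signal in the lower genotype. On chromosomes 1 to 5, 1.36 to 2.22% of the probe sets with 1 gene were called higher and 0.5 to 0.917% lower.

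These counts depended on single arrays and on the scaling. The error of the fit is shared by all 16 arrays, and the 2 arrays of WT mature somatic embryos stood apart from each other, with the lowest replicate correlation of the series (r = 0.922, the others 0.952 to 0.962). Without either of them all 614 probe sets kept their calls and the counts rose to 716 higher and 594 lower. Without either WT array of D14I they were 256 and 72, without either vtc2 array of D14I 258 and 86, and without either vtc2 array of mature somatic embryos 311 and 93. Without WT D7I replicate 1 there were 144 higher and 13 lower, without WT replicate 2 252 and 48, without vtc2 replicate 1 36 and 41, and without vtc2 replicate 2 67 and 21. Centring every array on its median moved the median difference of all probe sets to -0.14 and gave 300 higher and 267 lower. In a fit of the 4 D7I arrays alone limma called 0, with 4643 probe sets at an unadjusted p under 0.05 against 4679 in the fit of all arrays. Both vtc2 arrays lay above both WT arrays for 28.9% of all probe sets and below them for 27.2%, so that a lack of overlap on its own says little here. Of the 63 called genes named below, 13, 26, 10 and 6 kept their calls without the 4 arrays in the same order, and only *AT1G33055*, *AT3G25150*, *AT4G19980* and *UGT76C2* kept them in all 4 cases.

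**Figure D1:**
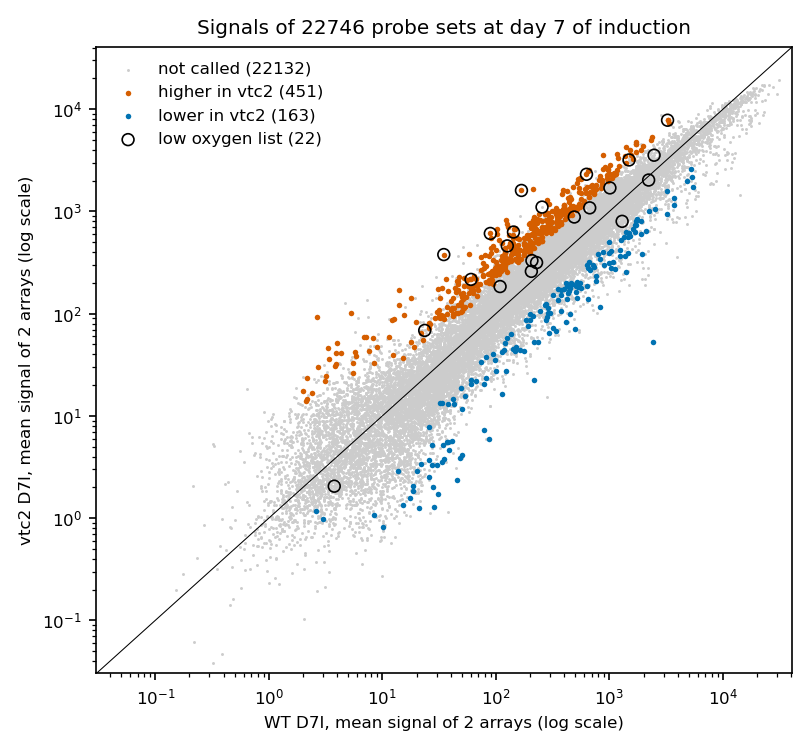
Mean signal of the 2 vtc2 D7I arrays against that of the 2 WT D7I arrays on log axes, 1 point a probe set. The 451 probe sets called higher in vtc2 and 163 called lower are coloured, open circles mark the 22 genes of the low oxygen list, and the line marks equal signals.

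The 3 genes at the head of the higher group all belong to the low oxygen list. This list holds genes that Arabidopsis is known to induce when oxygen runs short, a response driven by ethylene response factors that are degraded while oxygen is present. Of its 43 genes 22 were measured, 6 were called higher and 0 lower (8 and 0 without either array of WT mature somatic embryos), against 1.98% and 0.717% of all probe sets. The median difference over the 22 was 0.97. Low oxygen genes had drawn attention in earlier results of these data, and their direction is not independent evidence.

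*AT1G33055* (chromosome 1, 11971308 to 11972580 in TAIR10.1) had signals of 219 and 117 in WT and 1654 and 1554 in vtc2. Both vtc2 arrays were thus close to each other and far above WT. The difference was 3.32 ± 0.30 (standard error), with an adjusted p of 0.0032 from limma. In *AT5G10040* (chromosome 5, 3143723 to 3144157) both WT arrays read 34.8, near the weak range, and the vtc2 arrays 393 and 364, a difference of 3.44 ± 0.50 (adjusted p = 0.013, limma). *AT1G19530* read 122 and 57.1 in WT and 753 and 465 in vtc2, and differed by 2.83 ± 0.50 (adjusted p = 0.023, limma). In each of these 3 genes the genotypes did not overlap.

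The other genes of the list that were called are *AT4G33560*, *AT3G10040* and *AT4G27450*. *AT3G10040* is *HRA1*, a trihelix factor that dampens the low oxygen response, and it rose by 1.85 ± 0.31, from 53.4 and 67.3 to 227 and 206. *AT4G33560* read 513 and 744 in WT against 2208 and 2411 in vtc2. *AT4G27450* read 3770 and 2738 against 8624 and 6987, a difference of 1.27. It was no longer called after median centring or when the replicate number entered the fit. Only *AT1G33055* of the 6 kept its call when each D7I array was left out in turn, and the number of list genes called then ran from 1 to 4.

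Most of the 16 members that did not pass also had higher signals in vtc2. Over the 22 genes, 18 had both vtc2 arrays above both WT arrays and 3 had both below, beside 28.9% and 27.2% of all probe sets. *AT3G29970*, *AT2G17850* and *AT5G66985*, picked after their values were seen, had differences of 2.12, 2.12 and 1.88 with adjusted p of 0.34, 0.052 and 0.062. For *AT2G17850* the WT arrays read 221 and 289 and the vtc2 arrays 1167 and 1039, with no overlap. Without either array of WT mature somatic embryos, *AT2G17850* and *AT5G66985* were called (adjusted p = 0.020 and 0.041, limma). *AT4G10270* and *AT3G03270* differed by 1.10 and 0.72 (adjusted p = 0.080 and 0.34). The lactate dehydrogenase gene *AT4G17260*, for an enzyme of fermentation, read 2363 and 2586 in WT against 3749 and 3349 in vtc2 (0.52 ± 0.23, adjusted p = 0.25).

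Over the stages, the low oxygen list was lowest in the WT explants of D7I. Its median signal was 229 and 215 in the WT D7I arrays, 797 and 645 in vtc2 D7I, 1684 and 1709 in WT D14I and 1718 and 1769 in vtc2 D14I. WT zygotic embryos had 476 and 658, and vtc2 zygotic embryos 543 and 433. The vtc2 D7I arrays thus lay between WT D7I and both genotypes at D14I. At D14I the median genotype difference of the list was -0.08 and 0 genes were called, while in mature somatic embryos it was 0.96 with 7 called. Without WT array 1 or 2 of the mature somatic embryos these became 0.47 with 1 and 1.51 with 11, and without either vtc2 array of that stage 1 gene was called. Whether fewer responding cells or less RNA of these genes per cell gave the lower WT values cannot be told apart in bulk explants, here or for any gene below.

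**Figure D2:**
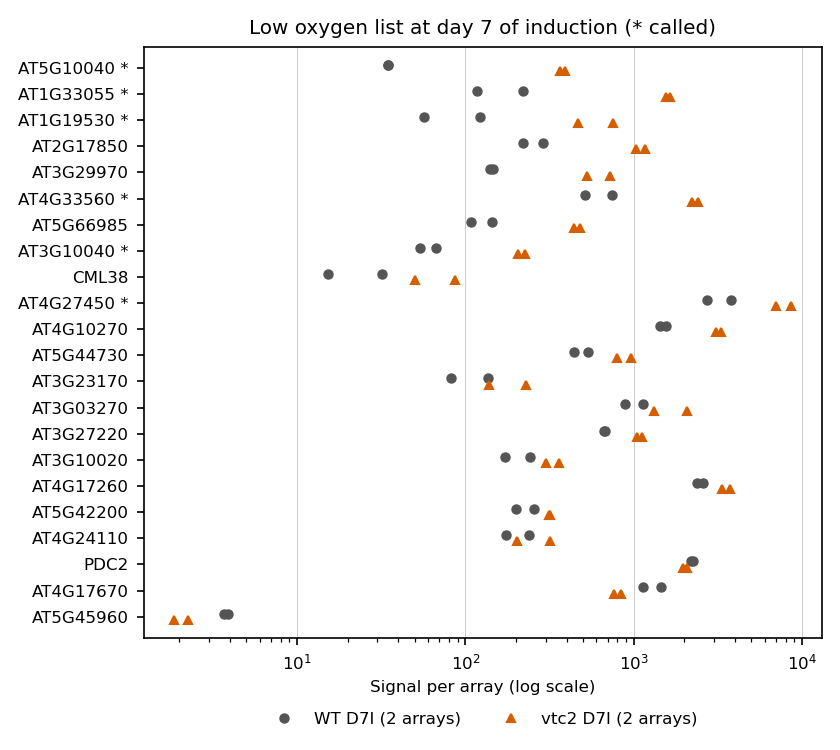
Signal in each D7I array (log axis) of the 22 measured genes of the low oxygen list, ordered by their log2 difference, with the 6 called genes starred. In 18 genes both vtc2 arrays (triangles) lie to the right of both WT arrays (circles), and in 3 genes both lie to the left.

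Outside this list, the genes that led the higher group encode proteins of many kinds. The 15 leading genes each way were those with the largest difference on the log2(signal + 30) scale, which favours well-measured genes. Family names given for loci without a symbol are general knowledge of the Arabidopsis genome and are not in the files. *AT3G25150*, a protein with a nuclear transport factor domain and an RNA recognition motif, had 459 and 647 in WT and 2053 and 2225 in vtc2, a difference of 1.97 ± 0.23 (adjusted p = 0.0071, limma). *AT2G18360*, of the α/β-hydrolase family, had 168 and 84.4 against 682 and 827 (2.66 ± 0.32). *AT4G19980*, which has no known role, had 201 and 95.5 against 671 and 716 (2.32 ± 0.28). In all 3 the genotypes did not overlap. *AT3G25150* and *AT4G19980* were called whichever D7I array was left out, and *AT2G18360* without any except vtc2 replicate 2.

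Genes of signalling and the cytoskeleton were also among the leaders. The formin gene *AT5G48360*, whose family nucleates actin filaments, read 131 and 123 in WT and 770 and 630 in vtc2. The NPH3 family gene *AT3G08570* read 77.8 and 38.5 against 371 and 402, and *AT3G63240*, of the inositol polyphosphate phosphatase family, read 174 and 116 against 588 and 762. *iqd15*, for a calmodulin-binding scaffold protein on microtubules, read 175 and 85.2 against 417 and 771, and here the vtc2 arrays differed nearly as much from each other as the WT arrays did. The remaining leaders *AT5G17760*, *AT5G26960*, *AT2G04480*, *AT4G31360* and *AT2G11910* differed by 1.97 to 3.62, and the WT signals of *AT5G26960* were weak at 9.94 and 18.0. The call of *AT5G17760* was lost when the replicate number entered the fit.

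**Figure D3:**
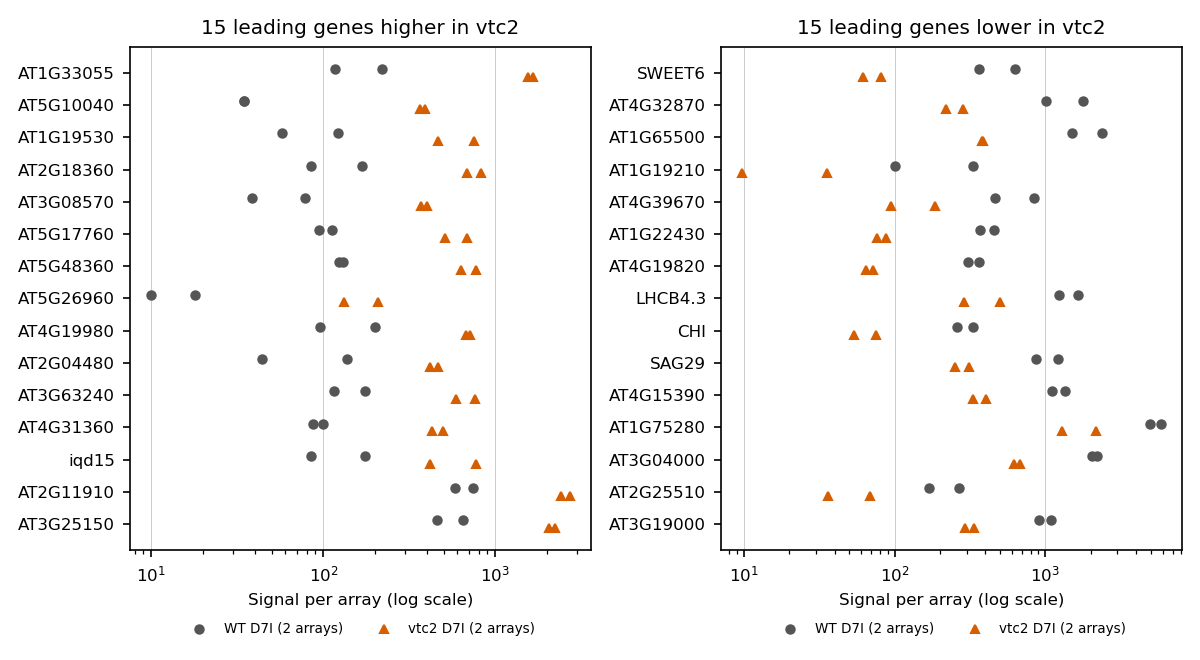
Signal in each D7I array (log axis) of the 15 leading genes higher in vtc2 (left) and the 15 leading genes lower in vtc2 (right), WT as circles and vtc2 as triangles. In none of the 30 genes do the genotypes overlap, which the choice of genes required.

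Hormone conjugation and auxin genes gave a mixed picture. The UDP-glycosyltransferase family, whose enzymes attach glucose to hormones and secondary metabolites, had 4 of 47 probe sets called higher and 1 lower (5 and 3 without either array of WT mature somatic embryos), beside 1.98% and 0.717% of all probe sets, with a median of -0.13. *UGT76C2*, which inactivates cytokinins by N-glucosylation, read 209 and 223 in WT and 921 and 850 in vtc2, with tight replicates in both. It rose by 2.04 ± 0.24 (adjusted p = 0.0071, limma) and was called whichever array was left out. *UGT85A2*, *UGT71C3* and *UGT74D1*, the last known to glucosylate auxins, rose by 1.68, 1.36 and 1.28, and *UGT72E1*, for an enzyme of phenylpropanoid metabolism, fell by 1.23. The call of *UGT85A2* was lost after median centring. *IAGLU*, for an indole-3-acetate glucosyltransferase, was picked after its values were seen and lies outside the family as matched by symbol: 262 and 196 in WT against 698 and 859 in vtc2, a rise of 1.77 ± 0.29 (adjusted p = 0.020, limma). *YUC6*, for a flavin monooxygenase of auxin synthesis and picked in the same way, read 6.98 and 8.36 against 44.8 and 41.9, so that its difference of 2.50 rests on weak WT signals, and with an offset of 30 it was not called.

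Genes that respond to auxin were not called in the fit used here. Of 8 measured early auxin genes 0 were called higher or lower, beside 1.98% and 0.717% of all probe sets, with a median of 0.39. With an offset of 30, with array weights or with a trended prior, 1 of the 8 was called higher. Either filter for a mean signal of at least 30 gave 1 of 7. Quantile normalization, median centring, the replicate number in the fit and the D7I arrays alone gave 0. The largest difference was that of *IAA20*, at 288 and 197 in WT against 574 and 837 in vtc2 (1.54 ± 0.37, adjusted p = 0.053, limma). *GH3.3* and *WES1*, for enzymes that conjugate auxin to amino acids, differed by 0.53 (adjusted p = 0.22) and -0.04 (adjusted p = 0.95), and *LBD16*, a factor of callus formation from the lateral root program, read 4265 and 4168 in WT against 1980 and 2619 in vtc2 (-0.89, adjusted p = 0.16). *WAG2*, for a kinase that directs PIN auxin carriers, rose by 1.31 ± 0.26 from 95.0 and 102 to 211 and 285, and was not called with quantile normalization. Its relative *PID2* differed by 1.47 with an adjusted p of 0.057 (0.030 without either array of WT mature somatic embryos, limma). These were the 2 measured genes of 18 on the auxin transport list. The single measured gene of the ethylene list and that of the cytokinin list were not called.

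The genes for NET1 proteins, RNA processing and chromosome proteins described next were picked after the called genes had been seen and stand for no group beyond themselves. NET1 proteins bind actin at membranes and plasmodesmata. *NET1B* read 60.2 and 59.2 in WT and 217 and 223 in vtc2, *NET1A* 149 and 206 against 519 and 569, and *NET1D* 92.6 and 69.5 against 189 and 218, differences of 1.88, 1.64 and 1.34 that were called. *NET1C*, at 43.3 and 42.3 against 50.5 and 60.9, did not pass (0.37, adjusted p = 0.70, limma). The call of *NET1D* was lost with quantile normalization, after median centring and when the replicate number entered the fit. Both genes for the small subunit of the splicing factor U2AF rose, *ATU2AF35A* by 1.78 ± 0.25 and *U2AF35B* by 1.41 ± 0.24. *CYP59*, a nuclear cyclophilin with an RNA recognition motif, rose by 1.97, and *TGH*, for a G-patch protein of microRNA processing, by 1.29.

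*TOPII*, the topoisomerase that untangles replicated chromosomes, read 188 and 291 in WT and 819 and 849 in vtc2 and rose by 1.84 ± 0.40 (adjusted p = 0.042, limma). Its call was lost after median centring and when the replicate number entered the fit. *3xHMG-box2*, for a protein that binds mitotic chromosomes, read 663 and 719 against 1713 and 1805 (1.35). Lists of cell division itself had few measured members. None of 3 mitosis genes, 2 DNA replication genes or 5 histone genes was called, with medians of 0.46, 0.41 and 0.61. Over all probe sets 1.98% were called higher and 0.717% lower. Both vtc2 arrays lay above both WT arrays in 2, 2 and 4 of these genes, beside 28.9% of all probe sets. They lay below in 0, beside 27.2%. The unadjusted p (limma) was under 0.05 for 1, 0 and 3, beside 4679 of all 22746 probe sets. The Aurora kinase gene *AUR1* read 861 and 808 in WT and 1340 and 1594 in vtc2 (0.81, adjusted p = 0.21). The histone H2B genes *HTB4*, *HTB11* and *HTB1* differed by 0.14, 0.61 and 1.02 with adjusted p of 0.75, 0.48 and 0.18.

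Receptor-like kinases of growing tissues moved in both directions. *AT5G48940* and *AT3G24240*, known receptors of root meristem growth factor peptides, rose by 1.66 ± 0.24 and 1.36 ± 0.21, the former from 506 and 354 to 1568 and 1137. *CR4*, for a receptor of epidermal and root cap fate, rose by 1.36 from 76.8 and 49.3 to 151 and 166. *GSO1*, which is needed for the embryonic cuticle and the Casparian strip, fell by 1.38 from 415 and 493 to 224 and 135. These 4 genes were picked after their values were seen, and the call of *CR4* was lost with quantile normalization and after median centring.

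**Figure D4:**
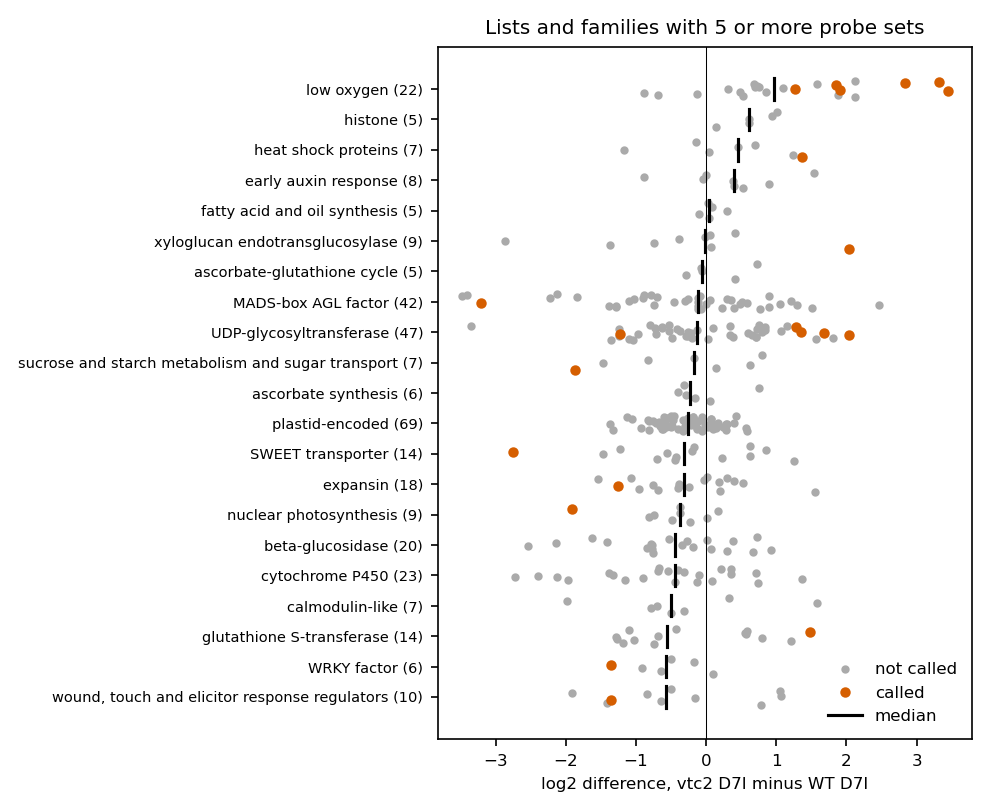
Log2 difference of vtc2 and WT at D7I for each probe set of the lists and families with 5 or more measured, with the number of probe sets in brackets. Black bars mark medians, from 0.97 for the low oxygen list to -0.57 for the wound, touch and elicitor regulators and WRKY factors, and coloured points are probe sets called.

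The 15 leading genes lower in vtc2 included the sugar transporter genes *SWEET6* and *SAG29*. *SWEET6* (chromosome 1, 24906451 to 24907236), for a sugar exporter of the SWEET family, read 626 and 362 in WT and 81.6 and 61.2 in vtc2, and fell by 2.75 ± 0.60 (adjusted p = 0.043, limma). *SAG29*, or *SWEET15*, which passes sucrose to the filling embryo and is also known from senescence, read 1219 and 863 against 313 and 253 (-1.87 ± 0.27, adjusted p = 0.012). In both genes the fall was larger than the difference between replicates of either genotype. The call of *SWEET6* was lost when the replicate number entered the fit. Of 14 probe sets matched to the SWEET family by symbol, which does not take in *SAG29*, 0 were higher and 1 lower, with a median of -0.31. Of 7 measured genes of sucrose, starch and sugar transport, 0 were higher and *SAG29* was lower, with a median of -0.17. Over all probe sets 1.98% were called higher and 0.717% lower. The single call in each group is a gene already named among the leaders, so neither count describes the group.

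Chitinases, oxidoreductases and an acyltransferase were among the other leaders. The chitinase gene *CHI* read 259 and 332 in WT and 75.5 and 53.6 in vtc2, and the chitinase family gene *AT4G19820* 308 and 362 against 71.8 and 64.5. *AT4G39670*, of the glycolipid transfer protein family, read 844 and 463 against 186 and 94.4. In all 3 the highest vtc2 array was below the lowest WT array by at least 2-fold. The call of *AT4G19820* was nevertheless lost when the replicate number entered the fit. *AT1G22430*, which resembles alcohol dehydrogenases, fell by 2.32 and *AT3G04000*, of the short-chain reductase family, by 1.71. The isoflavone reductase-like gene *AT1G75280* fell by 1.69 and *AT3G19000*, of the 2-oxoglutarate-dependent dioxygenase family, by 1.66. *AT1G75280* was not called with quantile normalization or with the replicate number in the fit. The acyltransferase family gene *AT4G15390* fell by 1.75, from 1360 and 1103 to 330 and 402. *AT4G32870*, *AT1G65500* and *AT2G25510*, of unknown role, fell by 2.43, 2.30 and 2.10, and *AT1G65500* was not called with the replicate number in the fit.

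Among regulators of the wound and elicitor response *WRKY22* was called lower, and several had a wide spread between replicates. Of 10 measured members 0 were called higher and 1 lower, beside 1.98% and 0.717% of all probe sets, with a median of -0.57. Both vtc2 arrays lay above both WT arrays in 3 members and below them in 3, beside 28.9% and 27.2% of all probe sets. *AT1G74450*, *PUB23* and *PUB22* differed by 1.07, 1.05 and 0.78 (adjusted p = 0.090, 0.35 and 0.33, limma). *WRKY22*, a factor of the response to flagellin, read 411 and 289 in WT and 163 and 111 in vtc2 and fell by 1.35 ± 0.31 (adjusted p = 0.047, limma). *STZ*, a zinc finger repressor of the stress response, read 2653 and 996 against 734 and 253 (-1.91, adjusted p = 0.081), and *AT4G29780* and *AT1G18740* differed by -1.41 and -0.85 with adjusted p of 0.22 and 0.21. The ethylene response factor gene *AT1G19210*, or *ERF017*, read 330 and 99.8 in WT and 35.6 and 9.68 in vtc2, and its fall of 3.29 ± 0.74 (adjusted p = 0.047, limma) was lost with quantile normalization. In *STZ* and *AT1G19210*, replicate 1 was more than 2-fold above replicate 2 in both genotypes. The calls of *WRKY22* and *AT1G19210* were lost when the replicate number entered the fit. *LCR68*, a defensin gene, and the ubiquitin ligase genes *PUB19* and *PUB26* were picked after their values were seen. The first and second fell by 1.03 and 1.24, and *PUB26* rose by 1.71. The call of *LCR68* was lost with quantile normalization, and those of *LCR68* and *PUB19* when the replicate number entered the fit.

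Photosynthesis transcripts had medians below 0, and only *LHCB4.3* of those listed passed. Of 9 nuclear genes 0 were higher and 1 was lower, beside 1.98% and 0.717% of all probe sets, with a median of -0.38. *LHCB4.3*, for an antenna protein of photosystem II, read 1651 and 1238 in WT and 501 and 289 in vtc2 (-1.91 ± 0.31, adjusted p = 0.020, limma). *LHCB4.1*, *PSAE-1* and *PSBY* differed by -0.81, -0.74 and -0.48 with adjusted p of 0.14, 0.23 and 0.18. Of 69 plastid-encoded probe sets 0 were called either way, beside the same 1.98% and 0.717%, with a median of -0.26. Both vtc2 arrays were below both WT arrays in 29 of the 69 and above in 6, beside 27.2% and 28.9% of all probe sets.

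The ascorbate route itself showed no called gene at D7I. All 6 measured genes of ascorbate synthesis, of 14 listed, and all 5 of the ascorbate-glutathione cycle, of 19 listed, failed to pass, with medians of -0.22 and -0.05. Over all probe sets only 1.98% were called higher and 0.717% lower, so 0 calls among so few genes says little. *VTC4*, for L-galactose-1-phosphate phosphatase, came nearest, at 692 and 734 in WT against 1123 and 1274 in vtc2 (0.75 ± 0.23, adjusted p = 0.11), and without either array of WT mature somatic embryos its adjusted p was 0.041 at the same size, below 2-fold. *GLDH*, for the last enzyme of the route, read 937 and 952 against 720 and 837 (-0.28 ± 0.17, adjusted p = 0.40), and the L-galactose dehydrogenase gene *AT4G33670* 1776 and 1740 against 1405 and 1269 (-0.40 ± 0.23, adjusted p = 0.38). *GME*, for the GDP-mannose epimerase, and *PMM*, for phosphomannomutase, differed by -0.16 ± 0.14 and -0.31 ± 0.22. *AT2G40860*, or *VTC3*, was weak in 3 of 4 arrays, at 10.2 and 38.9 in WT and 18.1 and 23.9 in vtc2.

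In the cycle, the chloroplast peroxidase genes *SAPX* and *TAPX* differed by -0.05 ± 0.19 and 0.72 ± 0.32, the monodehydroascorbate reductase gene *ATMDAR2* by 0.41 ± 0.16, and the glutathione reductase genes *GR1* and *GR* by -0.07 ± 0.18 and -0.29 ± 0.19. *ATMDAR2* read 1094 and 1046 in WT and 1457 and 1394 in vtc2, without overlap but with an adjusted p of 0.18. None of these p-values shows that the genotypes were alike.

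Embryo programs were likewise not called. Of 4 measured genes for seed storage or late embryogenesis proteins 0 were called, beside 1.98% of all probe sets called higher and 0.717% lower. Both vtc2 arrays of all 4 nevertheless lay below both WT arrays, as in 27.2% of all probe sets, and the median was -0.85. The late embryogenesis gene *AT3G15670* read 17177 and 13816 in WT and 8504 and 8957 in vtc2, and *M10* 3556 and 2744 against 1328 and 2196. *AT2G33520* read 4240 and 3022 against 1045 and 536. Their adjusted p of 0.88, 0.89 and 0.45 come with standard errors of 2.09, 2.43 and 1.54, which the fit shares over all stages. In the arrays of WT mature somatic embryos *AT3G15670* read 20.1 and 10963, and without either of these arrays *AT2G33520* was called lower (adjusted p = 0.020, limma). The embryo regulator *BBM* read 247 and 376 in WT against 530 and 464 in vtc2 (0.70, adjusted p = 0.12), and the other 2 measured genes of its list were not called.

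Cell wall, detoxification and heat shock genes gave single calls. *EXLA1*, for an expansin-like protein, fell by 1.25 ± 0.22, from 5934 and 3812 to 1907 and 2101, the only call among 18 expansin probe sets. *XTH20*, for an enzyme that cuts and rejoins xyloglucan, rose by 2.04 ± 0.36, from 115 and 111 to 642 and 339, the only call among 9. *GSTU26* rose by 1.49 among 14 glutathione S-transferase genes, and the mitochondrial small heat shock protein gene *AT5G51440* rose by 1.37 among 7 heat shock genes, from 256 and 339 to 686 and 846. *AGL24*, a MADS-box flowering gene, was the only call among 42 probe sets of its family, and its vtc2 signals of 6.63 and 2.57 are weak. The calls of *GSTU26* and *AGL24* were lost with an offset of 30. That of *GSTU26* was also lost after median centring and when the replicate number entered the fit. The medians of these families were -0.32, -0.02, -0.56, 0.45 and -0.11 in the same order. With 1.98% of all probe sets called higher and 0.717% lower, a single call says little about a family.

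For 23 cytochrome P450, 20 β-glucosidase, 7 calmodulin-like and 5 fatty acid genes 0 were called, with medians of -0.44, -0.44, -0.49 and 0.05. Over all probe sets 1.98% were called higher and 0.717% lower. The unadjusted p was under 0.05 for 3, 4, 2 and 0 of them. Both vtc2 arrays lay below both WT arrays in 12, 7, 4 and 0, beside 27.2% of all probe sets. They lay above in 0, 3, 2 and 3, beside 28.9%. With quantile normalization, after median centring and with an offset of 30, 1 cytochrome P450 gene was called lower. With the offset 1 calmodulin-like gene was too. Of 6 WRKY factors 0 were higher and 1, *WRKY22*, was lower. The single NAC factor and 2 flavonoid genes were not called.

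Of markers of tissues that a dissected embryo can carry along, 2 of 7 listed for endosperm and 2 of 8 listed for seed coat were measured. Of these 0 were called, beside 1.98% of all probe sets called higher and 0.717% lower. The endosperm factor gene *AGL62* read 35.05 and 29.6 in WT and 13.6 and 12.8 in vtc2 (-1.28, adjusted p = 0.20), and the other endosperm marker, *GH9C1*, 53.7 and 29.7 against 69.2 and 34.1 (0.28, adjusted p = 0.84). The seed coat gene *BAN*, for anthocyanidin reductase, read 1.76 to 3.16 in the 4 arrays, and the other seed coat marker, *AT3G10320*, 48.3 and 12.5 in WT against 29.0 and 20.3 in vtc2 (-0.02, adjusted p = 0.99). *GH9C1* and *AT3G10320* overlapped between the genotypes, while *AGL62* and *BAN* had both vtc2 arrays below both WT arrays.

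The genes called at D7I were then followed through the other stages. As they were chosen on the D7I arrays, their D7I values are a description only, while the genotype differences at ZE, D14I and in mature somatic embryos come from other arrays. Calls at those stages use the same error of the fit as the calls at D7I, so that the choice at D7I favours them too. The 451 probe sets higher in vtc2 had a median signal of 177 in WT D7I and 511 in vtc2 D7I, against 358 and 391 at D14I, in the order WT and vtc2. The 163 lower had 320 and 102 at D7I against 126 and 116 at D14I. At D14I both genotypes were therefore nearer to each other, at levels between those of D7I. WT zygotic embryos had 244 and 208 for the 2 sets.

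At D14I the genotype difference was above 0 for 302 of the 451 (67%, beside 52.4% of all probe sets) and below 0 for 107 of the 163 (65.6%, beside 47.6%), but 1 of each set was called there, beside 5 (0.022%) of all probe sets. The medians were 0.12 and -0.16 against 0.02 for all. At ZE 187 of the 451 were above 0 (41.5%, beside 49.1%), 77 of the 163 below 0 (47.2%, beside 50.9%), and 0 were called, beside 8 (0.0352%) of all. In mature somatic embryos the signs turned. The difference was below 0 for 358 of the 451 (79.4%, beside 58.4%) and above 0 for 103 of the 163 (63.2%, beside 41.6%), with medians of -0.54 and 0.33 against -0.15 for all. There 54 of the 451 were called lower and 7 higher, and 24 of the 163 were called higher and 3 lower, beside 2.15% called lower and 1.69% called higher overall. Without WT array 1 or 2 of mature somatic embryos the shares were 72.5 and 84.3% for the 451, beside 63.0 and 53.6% of all, and 55.8 and 74.8% for the 163, beside 37.0 and 46.4%, and the 54 called lower became 4 and 116 and the 24 called higher 8 and 36. Without vtc2 array 1 or 2 of that stage they became 5 and 8, and 4 and 5. Probe sets are not independent of each other, and each share rests on 2 arrays a group. The numbers called are also not independent of the choice at D7I, as the error is shared.

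Whether the genotype effect of D7I differed from that of another stage was tested in the same fit. Between D7I and ZE it was called for 105 probe sets (0.462%), 84 of them more positive at D7I, and between D7I and D14I for 3 (0.0132%), with 3359 and 2538 at an unadjusted p under 0.05. Between D7I and mature somatic embryos it was called for 2583 (11.4%), of which 1824 were more positive at D7I. Without either WT array of mature somatic embryos the differences from ZE and D14I were called for 352 and 42. Without any other single array they were called for 0 to 75 and 0 to 19. Without WT array 1 or 2 of mature somatic embryos the difference from that stage was called for 1326 and 4370, without vtc2 array 1 or 2 of that stage for 946 and 1484, and without WT D7I replicate 1 or vtc2 D7I replicate 1 or 2 for 855, 979 and 829. An effect called at D7I and not at D14I is thus not shown to differ between these stages for all but those 3 probe sets.

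Named genes show the patterns behind these counts. *AT1G33055* differed by -0.52 at ZE, -0.26 at D14I and 1.42 (adjusted p = 0.031, limma) in mature somatic embryos. That last call was lost without WT array 1 or either vtc2 array of that stage. It was also lost without any single array of D14I or either vtc2 array of D7I. *UGT76C2* differed by -0.06, 0.37 and -0.56, since WT reached a mean of 867 at D14I, close to the 885 of vtc2 at D7I. *NET1B* and *TOPII* had means of 64.7 and 222 in WT at D14I and 66.4 and 204 in vtc2, close to WT at D7I. *SAG29* had means of 884 in WT and 783 in vtc2 at D14I, nearer to WT than to vtc2 at D7I. *AT2G25510* turned its sign, from -2.10 at D7I to 1.57 (adjusted p = 0.35) at D14I and 2.83 (adjusted p = 0.0050, limma) in mature somatic embryos.

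**Figure D5:**
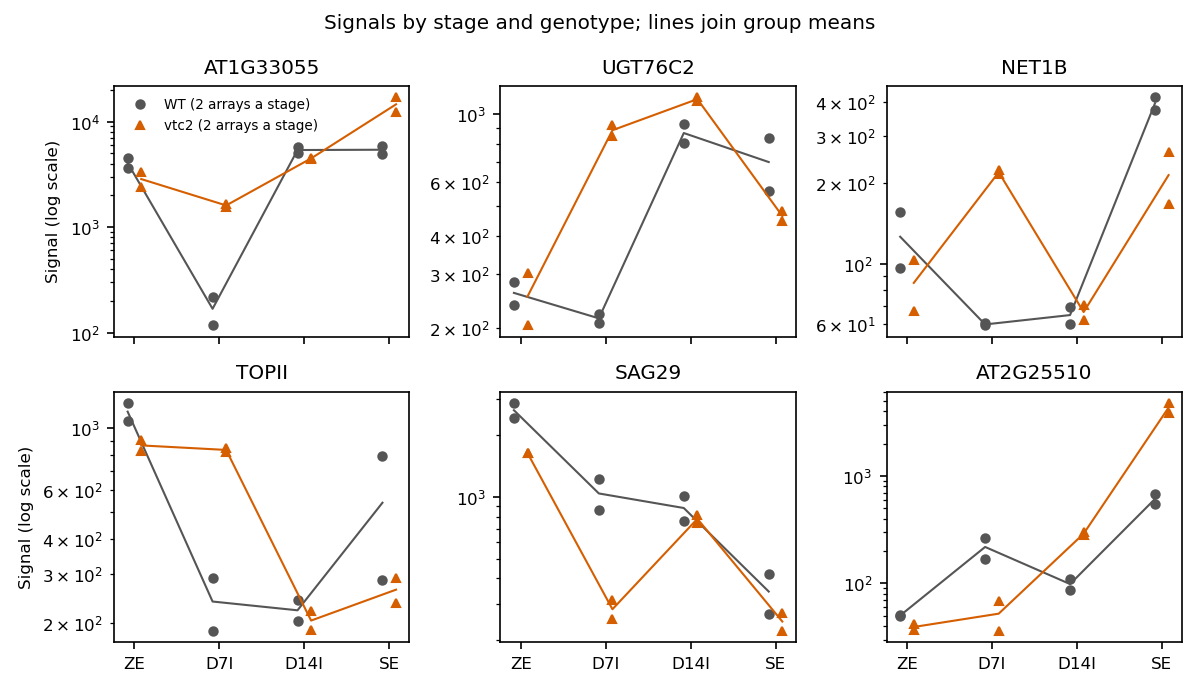
Signal per array (log axis) at each stage in WT (circles) and vtc2 (triangles) for 6 genes called at D7I, with lines through the group means of 2 arrays. SE on the axis stands for mature somatic embryos. The genotypes part at D7I in every panel and lie close at D14I in all except *AT2G25510*, where vtc2 is then above WT.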

How the data were processed

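The authors deposited 1 value per probe set and array, an intensity on a linear scale, and each array had a 2% trimmed mean of 500. The paper's methods describe RMA, which these values are not, and the submitters' processing notes name GCOS. The table held 0 columns of other series and no fold changes or p-values of the authors. From it, 64 controls were set aside, and the intensities were turned to log2 with no offset. The contrast came from limma 3.58.1 (R 4.3.3), fitted to all 16 arrays with a mean per group for 8 groups (8 residual and 1.62 prior degrees of freedom). The fit was tested on simulated data. The methods' multiclass SAM has a single q over all groups and does not test this contrast. A moderated F over all groups, with 2-fold at D7I, was run in its place.

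The study names 2 biological replicates a group, and that number limits the precision. Replicate numbers showed no clear pairing of arrays over all probe sets. Over 28 pairs of groups the correlation of deviations ran from -0.137 to 0.165, with 3 pairs above 0.1. Such a correlation cannot exclude a replicate effect in some genes. The leading genes are up to 15 in each direction with the largest difference on the log2(signal + 30) scale among those called, with 1 gene and no overlap. List and family members that passed, all measured ascorbate genes, and up to 3 non-passing members a list with the highest signals were named too, and others were picked after seeing values, as stated. The members, lists and families were chosen with earlier results of these data known. Of 13513 probe sets with 1 gene, 13484 matched a RefSeq locus tag of TAIR10.1, the assembly of all coordinates. Superoxide dismutase, jasmonate and trehalose lists had 0 members measured. Alternatives were other scalings, offsets, filters and priors, a fit of D7I alone, array weights, the replicate block, 1 probe set per gene, either threshold by itself and the omission of each array. Promoter motifs were not analysed here.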

Additional observations from a re-analysis of the deposited data

Results flagged for a closer look

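The test of the difference between stages was read for the 30 leading genes, which were chosen by their difference at D7I, a value that enters this test, so that the values below are a description. Against ZE the genotype effect at D7I was more positive by 3.84 in *AT1G33055*, 4.16 in *AT1G19530*, 2.95 in *AT2G18360* and 2.75 in *AT4G19980*. It was more positive by 2.48 in *AT2G11910* and 2.26 in *AT3G25150*, and it was -1.92 in *AT3G19000*. Each passed the adjusted threshold in limma.

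Against mature somatic embryos, the difference passed for 14 of the 15 leading higher genes, with a more positive effect at D7I in each. It was 1.91 in *AT1G33055*, 2.61 in *AT1G19530*, 2.22 in *AT2G18360*, 4.07 in *AT3G08570*, 3.48 in *AT5G17760*, 3.07 in *AT5G48360* and 3.82 in *AT5G26960*. It was 2.05 in *AT4G19980*, 2.99 in *AT2G04480*, 3.58 in *AT3G63240*, 2.85 in *AT4G31360*, 2.45 in *iqd15*, 2.61 in *AT2G11910* and 2.75 in *AT3G25150*.

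Of the leading lower genes 13 passed, with a more negative effect at D7I than in mature somatic embryos in each. The widest gap was in the ethylene response factor gene *AT1G19210*, at -7.33, where the effect in mature somatic embryos was 4.04 (adjusted p = 0.020, limma). It was -4.93 in *AT2G25510*, -4.65 in *AT4G39670* and -4.31 in *AT1G65500*, and these 3 genes were likewise called higher in vtc2 somatic embryos. Of these 4 calls in mature somatic embryos, only that of *AT2G25510* held without each array of that stage in turn. The values were -2.70 in *AT4G32870*, -3.06 in *AT1G22430*, -3.09 in *AT4G19820*, -2.40 in *LHCB4.3* and -2.26 in *CHI*. They were -1.41 in *SAG29*, -1.49 in *AT4G15390*, -2.38 in *AT3G04000* and -1.87 in *AT3G19000*. None of the 30 passed against D14I, where leaving out 1 array gave 0 to 6. Against ZE the 7 became 0 to 5 without 1 array of D7I, D14I, ZE or vtc2 somatic embryos and 19 without either WT array of somatic embryos. Against mature somatic embryos the 27 became 13 to 26.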

How the results depend on the processing

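The counts at D7I moved with most settings, given as higher and lower. They were 300 and 267 after median centring, 695 and 288 with a mean signal of at least 30 over the 16 arrays, 683 and 306 with a trended prior, 810 and 396 with array weights, 0 and 0 with the D7I arrays alone, 1935 and 2521 by 2-fold alone, 1222 and 1056 with the moderated F, and 229 and 73 with 1 probe set per gene. An offset of 30 gave 310 lower, and a signal of at least 30 in both D7I groups, chosen after seeing the data, 256 lower. Leaving out 1 array of any group gave 36 to 716 higher and 13 to 594 lower. The replicate block gave 305 higher and 93 lower at D7I, and 33 and 0 calls for the difference from ZE and D14I, although the numbers showed no clear pairing over all probe sets. The difference from ZE was called for 46 probe sets after median centring and 372 with the offset, and without 1 array of any group for 0 to 352. That from D14I was called for 7 with quantile normalization, 5 after centring and 73 with the offset, and without 1 array of any group for 0 to 42. That from mature somatic embryos ranged from 829 to 4370 without 1 array of any group. The cause was not tested.

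Of the 63 called genes named, 57 kept their calls with quantile normalization, 57 after median centring, 60 with the offset, 62 with the trended prior, 50 with the block and 0 with the D7I arrays alone, and none changed direction. Values near 0 that were not called changed sign. *GR1* and *WES1* reached 0.041 and 0.15 with quantile normalization, *AT2G40860* -0.076 after median centring and -0.048 with the offset, and *HTB4* -0.0017 after centring. Without 1 array *AT2G40860* ran from -0.91 to 1.03, *GR1* from -0.16 to 0.023, *WES1* from -0.11 to 0.022, *SAPX* from -0.16 to 0.051 and *HTB4* from -0.035 to 0.31.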
